A study of Homo sapiens with 12 samples.

Results

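A set of 10 genes of serine synthesis and of the folate-bound one-carbon pathway was followed after 8 h of caffeic acid phenethyl ester (CAPE) in NCI-H446 cells, a line grown from small cell carcinoma of the lung. They were taken by symbol from the deposited gene tables, and all 10 were found among the 34886 rows and passed the filter on low counts. PHGDH, PSAT1 and PSPH make serine, SHMT2, MTHFD2, MTHFD2L, MTHFD1L and ALDH1L2 are the mitochondrial folate enzymes, and SHMT1 and MTHFD1 the cytosolic ones. CAPE is a phenolic ester of propolis, known as an inhibitor of NF-kB. In all, 3 mRNA libraries came from H446 cells given 40 µM CAPE dissolved in dimethyl sulfoxide (DMSO), and 3 from H446 cells given an equal volume of DMSO alone. The labels do not say whether the 3 libraries of a group came from separate cultures, so the p-values measure the spread between these libraries, which may be technical. NCI-H446 is a single cell line, and no other line or dose was compared. In such bulk RNA, fewer cells that express a gene and less of its RNA per cell cannot be told apart.

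Cells make serine from the glycolytic intermediate phosphoglycerate in 3 steps. The serine hydroxymethyltransferases then split serine into glycine and a one-carbon unit, which is carried by tetrahydrofolate. Mitochondria oxidise that unit to formate and release it, and the cytosol uses it to build purines and thymidylate. The transcription factor ATF4, which is translated when amino acids run short or the endoplasmic reticulum is stressed, is known to drive several of these genes in many tumour lines.

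The libraries held 17569997 to 17993349 estimated counts in CAPE and 17770295 to 20917508 in DMSO, the most in DMSO 3. DMSO 3 stood apart in CPM (counts scaled by library size and the trimmed mean of M-values, TMM). On that scale 41.9% of the 13595 genes tested lay at least 2-fold from the mean of DMSO 1 and DMSO 2. Short transcripts lay above it and long ones below. In TPM (transcript abundance per length, scaled to the library) most length deciles lay below it. The median log2 deviation in TPM was 0.126 in the shortest decile, -0.716 in the 5th and -1.90 in the longest. A low TPM in DMSO 3 lowers the DMSO mean and so raises the 6-library ratio of CAPE to DMSO. The edgeR tests were therefore run with all 6 libraries and without DMSO 3. The order of levels, the overlap of TPM between groups and the likeness of profiles include DMSO 3. Of the neuroendocrine markers of the labelled cell type, SYP was at 0.365 to 0.547 TPM in CAPE and 0.376 to 0.455 TPM in DMSO. NEUROD1 and INSM1 were at or below 0.0588 TPM in CAPE and at 0 in DMSO, NCAM1 at or below 0.112 TPM in CAPE and 0.0133 TPM in DMSO, and CHGA at or below 0.237 TPM in CAPE and 0.369 TPM in DMSO. The sum of 4 epithelial markers, nearly all of it from the keratins KRT8 and KRT18, was 1126 to 1184 TPM in CAPE and 1292 to 2552 TPM in DMSO, the highest in DMSO 3. Fibroblast markers summed to 46.9 to 55.7 TPM in CAPE and to 46.6, 43.1 and 13.0 TPM in DMSO 1, 2 and 3, with COL1A2 at or below 0.0645 TPM in all 6 libraries. Immune markers summed to 28.6 to 34.3 TPM in CAPE and 23.9 to 26.0 TPM in DMSO, mostly CD68, with no count of CD3E. Endothelial markers summed to 1.10 to 3.46 TPM in CAPE and 1.58 to 4.06 TPM in DMSO. The part of these markers in the results below was not tested.

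The comparison asked how CAPE changed these enzymes within 8 h. By mean TPM over all 6 libraries, PHGDH and ALDH1L2 stood 4.13-fold and 4.09-fold higher in CAPE than in DMSO, and PSAT1, PSPH and MTHFD2 2.44-fold, 2.41-fold and 2.56-fold higher. The cytosolic SHMT1 and MTHFD1 stood at 1.03 and 1.08 times their DMSO level. Against DMSO 1 and 2 alone the TPM ratios were 3.20 for PHGDH, 2.84 for ALDH1L2, 2.155 for PSAT1, 2.32 for PSPH, 2.275 for MTHFD2, 0.99 for SHMT1 and 0.966 for MTHFD1. On counts, PHGDH and MTHFD2 rose in edgeR's quasi-likelihood test with all 6 libraries (Benjamini-Hochberg adjusted p under 0.05 over 13595 genes), and none of the 10 fell, also at an unadjusted p under 0.05 or by DESeq2. These are 2 of 10, where 1.95% of all genes tested passed in either direction and 1.49% were higher with CAPE. Without DMSO 3, 7 of the 10 were higher and 1, MTHFD1, was lower. That stands beside 41.2% of 13919 genes passing in that fit, 20.4% higher and 20.8% lower. The median log2 fold change of the 10 was 0.42 with all 6 libraries and 0.78 without DMSO 3, against -0.01 and 0.00 over all genes tested. In TPM, all 3 CAPE libraries lay above all 3 DMSO libraries for 7 of the 10 and below them for none, where 25.8% of the genes tested lay above and 8.17% below.

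**Figure D1:**
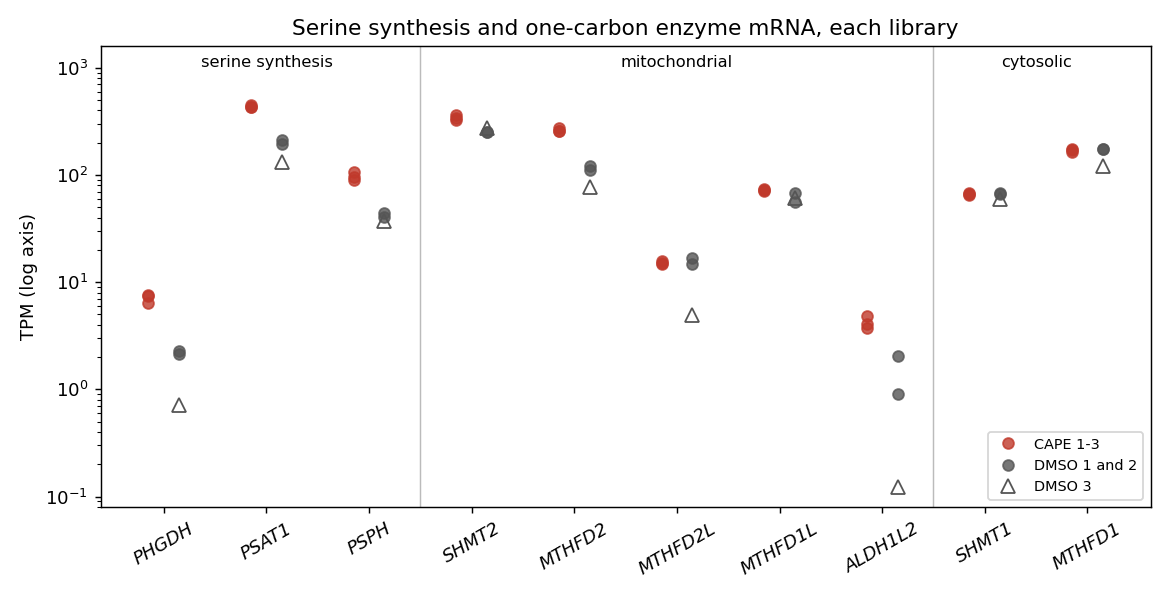
TPM of the 10 enzymes in each library on a log axis, with CAPE at left and DMSO at right of each pair, and DMSO 3 as an open triangle. The 3 CAPE libraries lay above all 3 DMSO libraries for PHGDH, PSAT1, PSPH, SHMT2, MTHFD2, MTHFD1L and ALDH1L2, and the groups overlapped for MTHFD2L, SHMT1 and MTHFD1.

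PHGDH, the dehydrogenase that commits phosphoglycerate to serine, was the scarcest of the 3 serine synthesis mRNAs. It measured 6.39, 7.44 and 7.54 TPM in CAPE 1, 2 and 3, against 2.30, 2.16 and 0.714 TPM in DMSO 1, 2 and 3. All CAPE libraries exceeded all DMSO libraries, and DMSO 3 was the lowest. The log2 fold change was 1.89 (SE 0.22, edgeR adjusted p = 0.0213) with all 6 libraries and 1.75 (SE 0.17, adjusted p = 9.21e-07) without DMSO 3. These levels rest on few reads, with 132, 150 and 161 estimated counts in CAPE and 45, 42 and 24 in DMSO. In DMSO 1 and 2, 38.8% of all genes with a TPM above 0 lay below PHGDH, against 96.4% below PSAT1. The 6-library call of PHGDH was lost without any one of CAPE 1, CAPE 2, CAPE 3, DMSO 1 or DMSO 2, while the log2 fold change stayed between 1.75 and 1.99 over all 6 omissions. It was lost also by limma on log2(TPM + 1), at a log2 fold change of 1.63 (SE 0.33, adjusted p = 0.116). By DESeq2 with all 6 libraries PHGDH passed (1.84, adjusted p = 9.00e-09).

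PSAT1, the aminotransferase of the second step, measured 434, 435 and 453 TPM in CAPE, against 196, 213 and 133 TPM in DMSO. In TPM the groups did not overlap, and DMSO 3 was again the lowest. In CPM they did not overlap either, but among DMSO libraries PSAT1 was highest in DMSO 3, at 365 CPM against 259 and 280 CPM. Its log2 fold change was 0.95 (SE 0.18) with all 6 libraries, which did not pass (edgeR adjusted p = 0.0704), and 1.11 (SE 0.04, adjusted p = 8.40e-11) without DMSO 3. With all 6 libraries it passed by DESeq2 (log2 fold change 0.90, adjusted p = 0.00151) and by limma on log2(TPM + 1) (1.31, adjusted p = 0.0493). PSPH, the phosphatase that releases free serine, measured 107, 90.5 and 96.4 TPM in CAPE, against 40.2, 44.2 and 37.4 TPM in DMSO. Every CAPE library exceeded every DMSO library. On counts its log2 fold change was 0.72 (SE 0.30, edgeR adjusted p = 0.312) with all 6 libraries and 1.12 (SE 0.07, adjusted p = 5.48e-09) without DMSO 3. With all 6 libraries PSPH passed by limma on log2(TPM + 1) (1.25, adjusted p = 0.0302), where the median of all genes was 0.33. It did not pass by DESeq2 (0.67, adjusted p = 0.261). DMSO 3 held 63.4 CPM of PSPH against 31.0 and 33.3 CPM in the other DMSO libraries, so that in CPM it lay close to the 68.1 to 73.0 CPM of CAPE. PSPHP1, a pseudogene of PSPH that may share its reads, held 37, 47 and 37 counts in CAPE and 31, 37 and 80 in DMSO, at most 8.63% of the PSPH count of the same library. Pseudogene rows of PSAT1, MTHFD2, MTHFD1 and SHMT1 held 0 to 4 counts per library.

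SHMT2, the mitochondrial hydroxymethyltransferase, was the most abundant of the 7 folate enzymes. It measured 360.4, 325 and 344 TPM in CAPE, against 250.3, 253 and 275 TPM in DMSO, without overlap. On counts the direction depended on DMSO 3, which held 641 CPM against 298 to 318 CPM in CAPE and 220.2 and 226 CPM in DMSO 1 and 2. The log2 fold change was -0.24 (SE 0.44, edgeR adjusted p = 0.741) with all 6 libraries and 0.45 (SE 0.04, adjusted p = 1.22e-06) without DMSO 3. Fitted by limma on log2(TPM + 1) it was 0.40 (SE 0.11, adjusted p = 0.237) with all 6 libraries, where the median of all genes was 0.33, and 0.44 (SE 0.05, adjusted p = 0.00288) without DMSO 3, where that median was 0.01.

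MTHFD2, the mitochondrial methylenetetrahydrofolate dehydrogenase and cyclohydrolase, measured 259, 259 and 273 TPM in CAPE, against 112, 120.1 and 77.3 TPM in DMSO. The lowest CAPE library lay above the highest DMSO library by more than the whole range of either group. Among DMSO libraries MTHFD2 was lowest in DMSO 3 in TPM but highest there in CPM, at 194 CPM against 151 and 160 CPM. The log2 fold change was 1.005 (SE 0.16, edgeR adjusted p = 0.0407) with all 6 libraries and 1.12 (SE 0.05, adjusted p = 1.53e-10) without DMSO 3. As for PHGDH, the 6-library call was lost without any one of CAPE 1, CAPE 2, CAPE 3, DMSO 1 or DMSO 2, at log2 fold changes of 0.93 to 1.04. It was lost also without the filter on low counts (adjusted p = 0.0799). With all 6 libraries MTHFD2 passed by DESeq2 (0.96, adjusted p = 3.44e-05). It passed also by limma on log2(TPM + 1) (1.37, adjusted p = 0.0399), where the median of all genes was 0.33. MTHFD2L, its paralogue, measured 14.8, 14.98 and 15.6 TPM in CAPE, against 14.9, 16.8 and 4.94 TPM in DMSO. Here only DMSO 3 lay apart, and the log2 fold change was 0.11 (SE 0.24, edgeR adjusted p = 0.786) with it and -0.10 (SE 0.10, adjusted p = 0.443) without it.

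MTHFD1L, the mitochondrial synthetase that releases formate, measured 71.5, 73.1 and 73.3 TPM in CAPE, against 67.7, 56.3 and 61.4 TPM in DMSO. All CAPE libraries were higher, by a small margin over DMSO 1. On counts its log2 fold change was -0.17 (SE 0.31, edgeR adjusted p = 0.738) with all 6 libraries and 0.25 (SE 0.05, adjusted p = 5.77e-04) without DMSO 3, where limma on log2(TPM + 1) gave 0.23 (SE 0.09) and did not pass (adjusted p = 0.104). ALDH1L2, a mitochondrial dehydrogenase that oxidises formyltetrahydrofolate to carbon dioxide and yields NADPH, measured 3.71, 4.04 and 4.803 TPM in CAPE, against 0.911, 2.04 and 0.122 TPM in DMSO. The groups did not overlap, and relative to its mean the spread between DMSO libraries was the widest of the 10, at 1.02 ± 0.963 TPM (SD, n = 3). Its estimated counts were 315, 305 and 354 in CAPE and 79, 111 and 19 in DMSO. The log2 fold change was 2.16 (SE 0.49) with all 6 libraries, short of the threshold (edgeR adjusted p = 0.109), and 1.76 (SE 0.14, adjusted p = 1.36e-07) without DMSO 3. With all 6 libraries ALDH1L2 passed by DESeq2 (2.13, adjusted p = 9.42e-04) and not by limma on log2(TPM + 1) (1.47, adjusted p = 0.224).

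SHMT1, the cytosolic hydroxymethyltransferase, measured 65.8, 66.3 and 68.4 TPM in CAPE, against 66.3, 68.6 and 60.2 TPM in DMSO. The groups overlapped fully. Its log2 fold change was -0.42 (SE 0.29, edgeR adjusted p = 0.410) with all 6 libraries and -0.04 (SE 0.05, adjusted p = 0.568) without DMSO 3. MTHFD1, which carries the dehydrogenase, cyclohydrolase and synthetase activities of the cytosol in a single protein, measured 169.8, 173 and 165 TPM in CAPE, against 175, 176 and 120.1 TPM in DMSO. The CAPE libraries lay just below DMSO 1 and 2 and above DMSO 3 in TPM, and below all 3 DMSO libraries in CPM (239.5 to 247 CPM in CAPE, 257 to 463 CPM in DMSO). The log2 fold change was -0.45 (SE 0.26, edgeR adjusted p = 0.363) with all 6 libraries and -0.13 (SE 0.04, adjusted p = 0.0265) without DMSO 3. That small fall did not pass without CAPE 2, CAPE 3 or DMSO 1 as well (log2 fold changes -0.11, -0.12 and -0.09), nor by limma on log2(TPM + 1), which gave -0.05 (SE 0.05, adjusted p = 0.480). With all 6 libraries, limma on log2(TPM + 1) gave 0.04 for SHMT1 and 0.13 for MTHFD1, against the median of 0.33 over all genes in that fit.

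**Figure D2:**
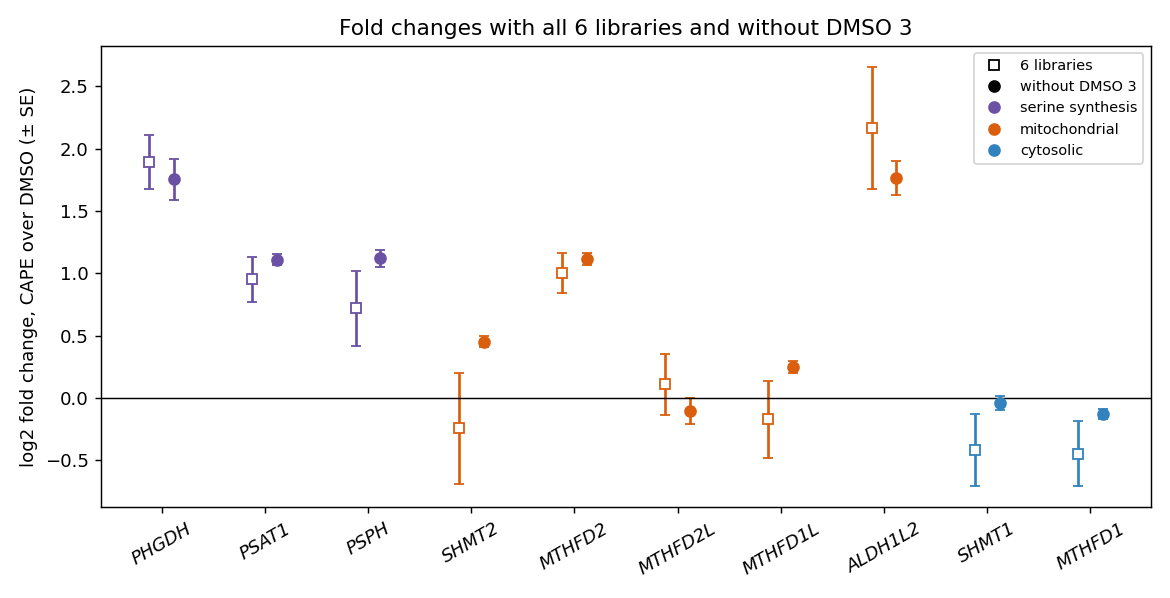
Log2 fold changes of CAPE over DMSO with their SE from edgeR, with all 6 libraries (open squares) and without DMSO 3 (filled circles), coloured by role. Without DMSO 3 the serine synthesis genes, MTHFD2 and ALDH1L2 lay between 1.11 and 1.76, SHMT2 and MTHFD1L at 0.45 and 0.25, and MTHFD2L, SHMT1 and MTHFD1 between -0.13 and -0.04.

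The order of the levels, in TPM and so per length, differed between the groups. In DMSO the means were 259 for SHMT2, 181 for PSAT1, 157 for MTHFD1, 103 for MTHFD2, 65.1 for SHMT1, 61.8 for MTHFD1L, 40.6 for PSPH, 12.2 for MTHFD2L, 1.72 for PHGDH and 1.02 for ALDH1L2. Of neighbours in that order, PSAT1 and MTHFD1, SHMT1 and MTHFD1L, and PHGDH and ALDH1L2 overlapped between libraries. In CAPE the means were 441 ± 10.7 for PSAT1, 343 ± 17.8 for SHMT2, 264 ± 8.25 for MTHFD2, 169 ± 4.15 for MTHFD1 and 97.9 ± 8.21 for PSPH (SD, n = 3), followed by 72.6 for MTHFD1L, 66.8 for SHMT1, 15.1 for MTHFD2L, 7.13 for PHGDH and 4.19 for ALDH1L2. No neighbours in the CAPE order overlapped. PSAT1 thus stood above SHMT2 in each CAPE library and below it in each DMSO library. MTHFD2 likewise stood above MTHFD1 in each CAPE library and below it in each DMSO library, and PSPH changed places with SHMT1 and MTHFD1L.

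Mitochondrial and cytosolic enzymes were compared inside each library, where the scaling of the library cancels. The 5 mitochondrial enzymes summed to 709.5, 676 and 711 TPM in CAPE, against 446, 449 and 418 TPM in DMSO. The 2 cytosolic enzymes summed to 236, 239.7 and 234 TPM in CAPE, against 241, 245 and 180.4 TPM in DMSO. The mitochondrial sum was therefore 74.7 ± 0.783% of both together in CAPE and 66.5 ± 2.94% in DMSO (SD, n = 3), and it was 69.9% in DMSO 3 against 64.9% and 64.7% in DMSO 1 and 2. Within the mitochondrial sum, MTHFD2 made up 36.5 to 38.5% in CAPE and 18.5 to 26.8% in DMSO, and SHMT2 48.1 to 50.8% in CAPE and 56.2 to 65.7% in DMSO. The 3 serine synthesis genes, nearly all PSAT1 and PSPH, summed to 547, 533 and 557 TPM in CAPE, against 239, 259 and 171 TPM in DMSO.

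The 4 isozyme ratios were tested by a two-sided exact permutation test over the 6 libraries, which at 3 against 3 cannot give a p below 0.1. The ratio of MTHFD2 to MTHFD1 was 1.53, 1.49 and 1.66 in CAPE and 0.640, 0.682 and 0.643 in DMSO. It was 2.38-fold higher with CAPE (log2 difference 1.25, SE 0.05, exact permutation p = 0.1, adjusted over the 4 ratios p = 0.133), and the log2 difference without DMSO 3 was 1.24. In this ratio DMSO 3 fell between the other DMSO libraries. The ratio of SHMT2 to SHMT1 was 5.48, 4.90 and 5.02 in CAPE and 3.77, 3.69 and 4.56 in DMSO, a log2 difference of 0.36 (SE 0.11, exact permutation p = 0.1, adjusted p = 0.133) and of 0.46 without DMSO 3. The ratio of MTHFD2 to its paralogue MTHFD2L was 17.5, 17.3 and 17.5 in CAPE and 7.52, 7.15 and 15.6 in DMSO. The log2 difference was 0.89 (SE 0.37, exact permutation p = 0.1, adjusted p = 0.133), and 1.25 without DMSO 3, the library in which MTHFD2L was low. In TPM these 3 ratios did not overlap between the groups. The ratio of MTHFD1L to MTHFD1 did, at 0.421, 0.421 and 0.444 in CAPE and 0.388, 0.320 and 0.511 in DMSO (log2 difference 0.10, SE 0.20, exact permutation p = 0.7, adjusted p = 0.7). Its log2 difference was 0.28 without DMSO 3 and -0.05 without DMSO 2. With CPM in place of TPM the log2 difference of MTHFD2 over MTHFD1 was 1.41 (exact permutation p = 0.1), and MTHFD1L over MTHFD1 was 0.31 higher without overlap (exact permutation p = 0.1). On that scale SHMT2 over SHMT1 and MTHFD2 over MTHFD2L overlapped between the groups, at log2 differences of 0.30 (exact permutation p = 0.4) and 0.86 (exact permutation p = 0.2).

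**Figure D3:**
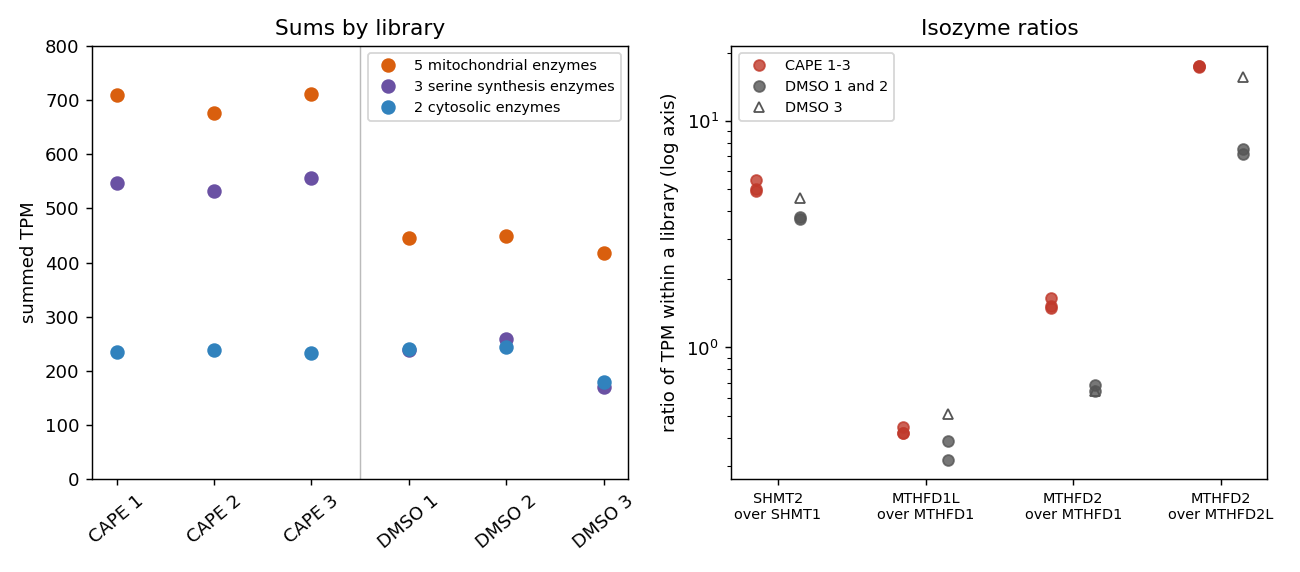
Left, TPM summed over the enzymes of each role in each library. Right, ratios of TPM of an enzyme pair within a library on a log axis, CAPE left of DMSO, with DMSO 3 as an open triangle. The mitochondrial sum was 676 to 711 TPM in CAPE and 418 to 449 TPM in DMSO while the cytosolic sums overlapped, and MTHFD2 exceeded MTHFD1 in the CAPE libraries alone.

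DMSO 3 was set beside transcript length for each member, taken as counts divided by TPM and scaled to the median of 10929 genes in each library. In the 3rd to 6th deciles of this length the median gene lay 0.80, 0.60, 0.46 and 0.23 (log2 CPM) above DMSO 1 and 2 in DMSO 3, and in the 10th decile it lay 0.89 below. SHMT2, in the 4th decile, lay 1.52 above, SHMT1, in the 5th, 0.93 above, MTHFD1, in the 6th, 0.81 above and MTHFD1L, in the 7th, 1.02 above, all higher than the median of their decile. PSPH, PSAT1 and MTHFD2 lay 0.98, 0.44 and 0.32 above, beside decile medians of 0.80, 0.23 and 0.46. PHGDH and MTHFD2L, both in the 4th decile, lay at -0.45 and -0.75 instead, and ALDH1L2, in the 10th, at -1.83. The part of length in these values was not tested. Scaled length also differed between libraries for ALDH1L2, at 3.52, 3.17 and 2.98 in CAPE and 3.56, 2.22 and 3.74 in DMSO.

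**Figure D4:**
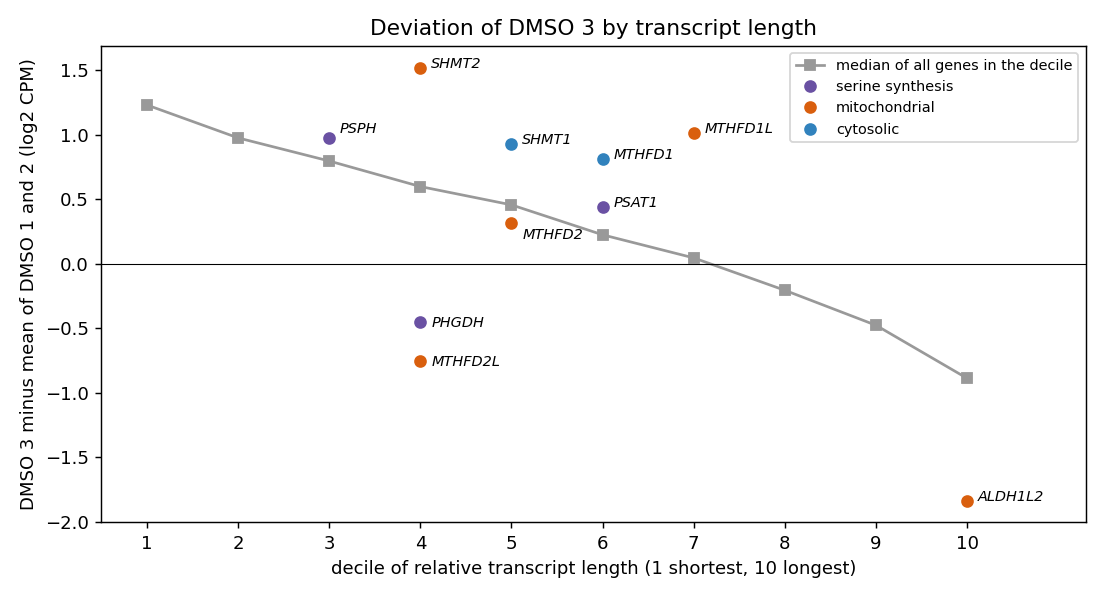
Deviation of DMSO 3 from the mean of DMSO 1 and 2 (log2 CPM) against the decile of relative transcript length, with the median of all genes per decile as grey squares and the 10 enzymes as coloured points. The medians run from 1.23 in the shortest to -0.89 in the longest decile, with SHMT2 at 1.52 and ALDH1L2 at -1.83 the members farthest from 0.

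Likeness between profiles was measured as the root mean square distance of log2 CPM centred on each gene's mean over the 6 libraries. Among the 10 members PSAT1 and MTHFD2 were closest, at 0.048, followed by SHMT1 and MTHFD1 at 0.066. Of 9971 genes with an average log2 CPM of at least 3, PSAT1 was also the nearest of all to MTHFD2, ahead of NFIL3, a transcription factor (0.056), and ANKZF1, a factor of ribosome quality control (0.058). The nearest to PHGDH were VLDLR, a lipoprotein receptor, AMIGO2, an adhesion protein, and IRS2, an insulin receptor substrate (0.115, 0.118 and 0.120). The nearest to SHMT1 were UBE2D2, a ubiquitin-conjugating enzyme, NACA, of the nascent polypeptide-associated complex, and VAC14, a scaffold of lipid kinase regulation (0.018, 0.026 and 0.028). The median gene lay 0.645 from MTHFD2, 1.003 from PHGDH and 0.393 from SHMT1. All these distances include DMSO 3, and none was computed without it. SHMT1 lay at 154 CPM in DMSO 3 and at 76.4 to 82.2 CPM elsewhere. MTHFD1 lay at 463 CPM in DMSO 3 and at 239.5 to 271 CPM elsewhere. The likeness of these 2 genes, and the nearest profiles to SHMT1, thus rest largely on that library.

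Promoters are shown for PSAT1 and MTHFD2, the pair with the closest profiles, for the cytosolic MTHFD1 beside them, and for MTHFD1L, whose windows held the letters of an ATF4 element. RefSeq (GRCh38.p14) gave windows of 250 bases before to 50 after a start for 7 of the 10 members. For these, 3 motifs were searched on both strands: the C/EBP-ATF element bound by ATF4 with its partners (TGATGNAA), the E-box bound by MYC and others (CACGTG) and the CCAAT box bound by NF-Y (CCAAT), none of which overlapped another in the stretches shown. The 250 bases before the start of each gene are given 5′ to 3′, with CCAAT and CACGTG in capitals, from chr9:78296875-78297124 for PSAT1, chr2:74198365-74198614 for MTHFD2 and chr14:64388103-64388352 for MTHFD1, all on the plus strand. The last stretch is 30 bases of an MTHFD1L promoter window, chr6:150866346-150866375, plus strand, with TGATGCAA in capitals.
PSAT1: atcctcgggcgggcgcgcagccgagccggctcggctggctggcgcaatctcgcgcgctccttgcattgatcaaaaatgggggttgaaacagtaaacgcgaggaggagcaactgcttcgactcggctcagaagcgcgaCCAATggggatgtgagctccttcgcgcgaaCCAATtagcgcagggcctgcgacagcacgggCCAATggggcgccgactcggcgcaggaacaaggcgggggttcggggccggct
MTHFD2: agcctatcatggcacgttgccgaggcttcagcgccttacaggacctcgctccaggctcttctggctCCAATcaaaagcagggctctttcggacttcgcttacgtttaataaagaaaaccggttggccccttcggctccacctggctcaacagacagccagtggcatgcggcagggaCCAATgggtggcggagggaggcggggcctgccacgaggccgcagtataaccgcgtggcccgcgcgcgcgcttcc
MTHFD1: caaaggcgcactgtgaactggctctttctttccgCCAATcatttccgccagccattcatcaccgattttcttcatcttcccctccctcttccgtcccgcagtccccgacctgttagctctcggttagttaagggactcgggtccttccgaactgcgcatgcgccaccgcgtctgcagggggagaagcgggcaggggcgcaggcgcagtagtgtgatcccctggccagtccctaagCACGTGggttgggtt
MTHFD1L: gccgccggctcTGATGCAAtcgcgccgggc

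TGATGNAA was found in 3.62% of all 35116 windows and, among the 7 members, in MTHFD1L alone, in 3 overlapping windows of its 4 that share the site at chr6:150866357-150866364. From the starts of these windows the site lay at -129, -90 and 24, the last of them after the start. The windows of PSAT1, MTHFD2 and PHGDH did not hold these letters. CACGTG stood in 7.26% of all windows and in those of MTHFD1, at -15 from the start, and MTHFD1L. CCAAT stood in 34.6% of all windows and in those of 6 of the 7 members, 3 times in PSAT1 at -113, -83 and -52 from the start and 2 times in MTHFD2 at -184 and -74. A match of letters is a description of the sequence and not of binding.

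The rest of the pathway was read from 45 listed genes, of which 37 were tested with all 6 libraries and 38 without DMSO 3. With all 6 libraries 1 rose and none fell, at a median log2 fold change of -0.05 (2 higher and 2 lower at an unadjusted p under 0.05, and 2 higher and 2 lower by DESeq2, which called 3.35% of all genes higher and 2.07% lower). Without DMSO 3, 8 were higher and 14 lower by edgeR, beside the 20.4% and 20.8% of all genes, and 6 higher and 6 lower by limma on log2(TPM + 1), beside 11.6% and 10.1% of all genes. The 1 that rose in both edgeR fits was CTH, cystathionine gamma-lyase, which makes cysteine from the product of serine and homocysteine. It measured 26.7, 26.7 and 29.0 TPM in CAPE, against 7.58, 8.20 and 3.96 TPM in DMSO (log2 fold change 1.81, SE 0.16, edgeR adjusted p = 0.0112, and 1.87 without DMSO 3), and by limma on log2(TPM + 1) with all 6 libraries it did not pass (adjusted p = 0.0554). CBS, which joins serine to homocysteine, and SRR, serine racemase, both named after their values were seen, passed as higher without DMSO 3 (log2 fold changes 0.405 and 0.435) and did not pass with it (0.16 and 0.19).

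Of 5 serine carriers none passed with all 6 libraries by edgeR (1 higher at an unadjusted p under 0.05) and 1 did by DESeq2, SLC1A4. Without DMSO 3, 3 were higher and none lower, beside 20.4% of all genes higher. SLC1A4, a neutral amino acid exchanger that carries serine, measured 27.7, 27.1 and 26.8 TPM in CAPE, against 12.1, 11.9 and 8.59 TPM in DMSO (log2 fold change 0.99, edgeR adjusted p = 0.0952, and 1.215 with adjusted p = 1.52e-09 without DMSO 3). SLC1A5, a related exchanger best known for glutamine, measured 305, 294 and 295 TPM in CAPE, against 176, 176 and 180.0 TPM in DMSO. SFXN3, of the mitochondrial sideroflexins that include serine carriers, measured 75.9, 77.9 and 74.2 TPM in CAPE, against 46.7, 46.8 and 27.1 TPM in DMSO. By edgeR both passed without DMSO 3 only, at log2 fold changes of 0.74 and 0.64. By limma on log2(TPM + 1) with all 6 libraries, which called 0.737% of all genes higher, SLC1A5 passed (0.74, adjusted p = 0.0419, where the median of all genes was 0.33). The TPM of all 3 carriers lay above DMSO in each CAPE library, as did that of 25.8% of all genes.

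Purine synthesis uses formyl units carried by folate. None of its 6 genes passed by edgeR with all 6 libraries (1 lower at an unadjusted p under 0.05, and 1 lower by DESeq2), and without DMSO 3 edgeR called 5 lower, 0 higher, beside 20.8% of all genes lower, at a median log2 fold change of -0.26. By limma on log2(TPM + 1) without DMSO 3, 2 of the 6 were lower, beside 10.1% of all genes. ATIC, which carries out the last formyl transfer of purine synthesis, measured 130.5, 129 and 136 TPM in CAPE, against 183, 181 and 272 TPM in DMSO (log2 fold change -0.91, edgeR adjusted p = 0.327, and -0.31 with adjusted p = 6.61e-05 without DMSO 3). PFAS, ADSL and, named after their values were seen, PPAT and GART, enzymes of the same route, had log2 fold changes of -0.41, -0.29, -0.225 and -0.16 in that fit, of which ADSL alone also passed by limma.

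Of 5 methionine cycle genes tested none passed by edgeR with all 6 libraries (1 lower at an unadjusted p under 0.05, and 1 by DESeq2). By edgeR without DMSO 3, 1 was higher and 3 were lower, beside 20.4% of all genes higher and 20.8% lower. MAT2B, the regulatory subunit of methionine adenosyltransferase, measured 34.4, 40.4 and 34.6 TPM in CAPE, against 50.8, 58.1 and 29.9 TPM in DMSO, and its log2 fold change was -0.57 without DMSO 3. MAT2A, the catalytic subunit, and MTRR, which reactivates methionine synthase, both named after their values were seen, were lower there too (-0.33 and -0.22). MTR, methionine synthase, was the 1 higher (0.13, adjusted p = 0.0497), and it did not pass by DESeq2 (adjusted p = 0.136) or limma on log2(TPM + 1) (adjusted p = 0.220). By limma MAT2A did not pass either (adjusted p = 0.0630), which left MAT2B and MTRR lower and none higher. AHCY, which clears S-adenosylhomocysteine, did not pass (-0.09).

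None of 6 genes of folate uptake and retention passed by edgeR with all 6 libraries, by unadjusted p or by DESeq2 adjusted p (2 lower by its unadjusted p). By edgeR without DMSO 3, 3 were lower, beside 20.8% of all genes. SLC19A1, the reduced folate carrier, measured 35.7, 31.1 and 31.0 TPM in CAPE, against 45.1, 36.3 and 41.8 TPM in DMSO (log2 fold change -0.35 without DMSO 3). FPGS, which adds the glutamate tail that keeps folate in the cell, and SLC25A32, the mitochondrial folate carrier, named after its values were seen, were at -0.31 and -0.35. Of these 3, SLC25A32 alone also passed by limma on log2(TPM + 1). SLC46A1, the proton-coupled folate transporter, did not pass (-0.09).

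Among genes of folate use, MTFMT, which formylates the mitochondrial initiator tRNA, did not pass by edgeR with all 6 libraries (log2 fold change -0.46, adjusted p = 0.328) and was lower without DMSO 3 (-0.25, adjusted p = 0.0406), where it did not pass by DESeq2 (adjusted p = 0.153). TYMS, thymidylate synthase, measured 209, 206 and 219 TPM in CAPE, against 202, 205 and 210.3 TPM in DMSO, and did not pass in either fit, nor did MTHFS, which returns formyltetrahydrofolate to the pool. None of 5 tested genes of glycine cleavage and related steps passed with all 6 libraries (0 also at an unadjusted p under 0.05 and by DESeq2). By edgeR without DMSO 3, 1 of 6 was lower, beside 20.8% of all genes. It was DLD, the lipoamide dehydrogenase, named after its values were seen (-0.22). DLD did not pass by limma on log2(TPM + 1) (-0.16, adjusted p = 0.219). GLDC, the glycine decarboxylase, was scarce at 1.10 to 1.73 TPM in CAPE and 0.415 to 0.940 TPM in DMSO, and neither it nor GCSH or GCAT passed in either fit.

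**Figure D5:**
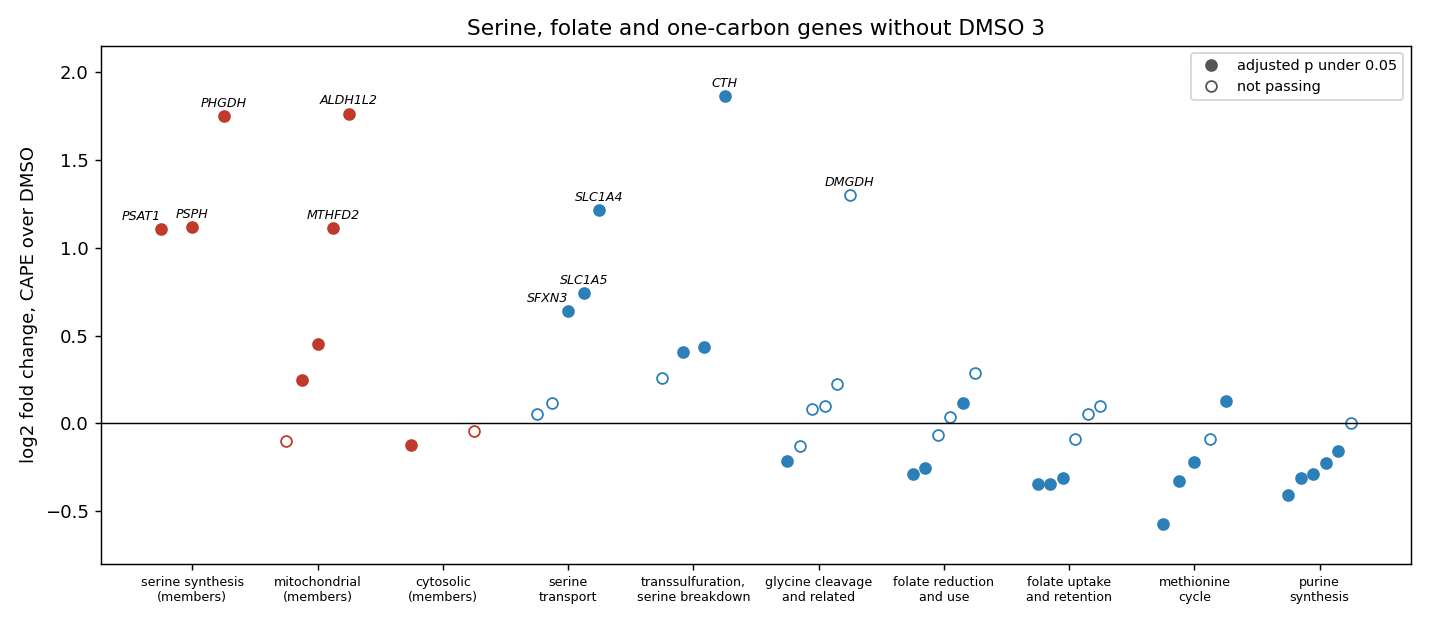
Log2 fold change of CAPE over DMSO without DMSO 3 for each tested gene, by list, with filled circles for an edgeR adjusted p under 0.05 and the 10 enzymes in red. Genes above 0.6 carry their names, among them CTH at 1.87 and SLC1A4 at 1.22, and 5 of the 6 purine synthesis genes lie between -0.41 and -0.16.

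Of known regulators of these enzymes, ATF4 measured 666, 637 and 653 TPM in CAPE, against 449, 462 and 536.5 TPM in DMSO. The groups did not overlap in TPM. On counts its log2 fold change was -0.03 (SE 0.38, edgeR adjusted p = 0.964) with all 6 libraries and 0.525 (SE 0.04, adjusted p = 6.57e-08) without DMSO 3. NFE2L2, which encodes the antioxidant factor NRF2, measured 74.9, 71.1 and 78.1 TPM in CAPE, against 95.9, 97.6 and 28.0 TPM in DMSO, with a log2 fold change of -0.39 that passed without DMSO 3 only (edgeR adjusted p = 8.85e-06). MYC measured 364, 346 and 342 TPM in CAPE, against 412, 412 and 291 TPM in DMSO, and likewise passed as lower without DMSO 3 only (-0.27).

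The genes lie on 9 chromosomes, here given from RefSeq GRCh38.p14. PHGDH is at chr1:119711934-119744215, PSAT1 at chr9:78297125-78330093 and PSPH at chr7:56011064-56051444. SHMT2 and ALDH1L2 share chromosome 12, at 57229711 to 57234935 and 105019790 to 105084458, and SHMT1 is at chr17:18327873-18363550. MTHFD1 is at chr14:64388353-64460025, MTHFD1L at chr6:150865702-151101887, MTHFD2 at chr2:74198615-74217565 and MTHFD2L at chr4:74114560-74303099.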

How the data were processed

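The data were mRNA sequencing of 6 libraries, and the 6 columns of miRNA counts were not used here. The authors deposited estimated counts per gene symbol, which hold whole numbers, and TPM values, and the submitters' processing notes name bcl2fastq, kallisto 0.46.1 and GRCh38. How transcripts were summed to genes is not given in the sources used here. Genes with a TPM above 0 beside a count of 0 (32 to 65 per library) mark the counts as rounded.

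Counts were filtered with filterByExpr, scaled by TMM factors (0.699 in DMSO 3, 1.07 to 1.09 elsewhere) and tested with edgeR 4.0.16 in R 4.3.3 (quasi-likelihood F test, group as the only term, Benjamini-Hochberg over all genes). Standard errors (SE) were derived from the F statistic (absolute log2 fold change over its square root), and log2 CPM used a prior count of 2. Alternatives used limma 3.58.1 (on genes with a mean TPM of at least 1), DESeq2 1.42.0 and each library left out. The members, lists and naming rule were chosen with earlier results of these data known. The rule took the 10 members, ATF4, MYC and NFE2L2, per list the genes passing with 6 libraries or else the 3 with the smallest p, and the 3 nearest profiles to PHGDH, MTHFD2 and SHMT1. Sequences and coordinates are from RefSeq GRCh38.p14. Some listed genes are not reported here.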

Additional observations from a re-analysis of the deposited data

How the results depend on the processing

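With all 6 libraries, 265 genes passed by edgeR, 856 by DESeq2, 120 and 93 by limma on log2(TPM + 1) and log2(TPM + 0.1), and 5592 by voom with sample quality weights, which weighted DMSO 3 at 0.02 and the others at 2.02 to 2.46. Of the 10 members 2 passed by edgeR, beside 265 of 13595 genes, and 1 without the filter on low counts, beside 194 of 21660. By DESeq2 4 members passed, beside 856 of 15773 genes. By limma 3 and 2 passed with pseudocounts 1 and 0.1, beside 120 and 93 of 13161. With the quality weights 7 passed, beside 5592 of 13595. Leaving out a library gave 0 to 5731 genes and 0 to 8 members. Of these, 0 genes passed without CAPE 1 or CAPE 3 (1178 and 1099 with an unadjusted p under 0.05), and the 5731 genes and 8 members passed without DMSO 3. Whether the numbers 1 to 3 pair the libraries could not be decided. Deviations from the group mean of libraries with the same number correlated at -0.194, 0.14 and -0.00853. The DMSO mean includes DMSO 3, so the deviations of DMSO 1 and 2 mirror that of DMSO 3. CAPE 1, for example, correlated at -0.194, -0.184 and 0.203 with DMSO 1, 2 and 3. With a replicate block 0 genes and 0 members passed with 6 libraries (1384 genes with an unadjusted p under 0.05), and 5025 genes and 7 members without DMSO 3. In the comparison without DMSO 3, limma on log2(TPM + 1) passed 2893 genes and 6 members, against 5731 genes and 8 members by edgeR. With a CAPE library left out as well, 7 or 8 members passed by edgeR (4905 to 5391 genes). Where DMSO 1 or DMSO 2 was left out as well, the lone DMSO library is assumed to vary like the CAPE libraries.

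With all 6 libraries, these members changed sign. SHMT2, at a log2 fold change of -0.24, was at 0.40 by limma with either pseudocount and at 0.45 with quality weights, and between -0.511 and 0.451 when a library was left out. MTHFD1L, at -0.17, was at 0.23 and 0.24 by limma with pseudocounts 1 and 0.1, at 0.25 with quality weights, and between -0.355 and 0.248 with a library left out. SHMT1, at -0.42, was at 0.040 and 0.041 by limma, and MTHFD1, at -0.45, at 0.131 and 0.132. In these limma fits the median of all genes was 0.331 and 0.390, against -0.01 by edgeR, so relative to it SHMT1, MTHFD1 and MTHFD1L stayed below 0. MTHFD2L, at 0.11, was at -0.094 with quality weights and between -0.103 and 0.275 with a library left out. Leaving out DMSO 3 was the omission that turned SHMT2, MTHFD1L and MTHFD2L. The cause was not tested. PHGDH, PSAT1, PSPH, MTHFD2 and ALDH1L2 were positive in all settings run. Of 130 refits of single members with all 6 libraries, 89 kept direction and side of the threshold, 14 reversed, 12 newly passed and 15 no longer passed. Without DMSO 3, 94 of 100 kept both and 6 no longer passed. Leaving out a library moved the log2 difference of MTHFD1L over MTHFD1 between -0.054 and 0.284, of SHMT2 over SHMT1 between 0.305 and 0.458, of MTHFD2 over MTHFD1 between 1.205 and 1.279, of MTHFD2 over MTHFD2L between 0.685 and 1.250, and of the mitochondrial over the cytosolic sum between 0.513 and 0.684. The other tools for the further pathway lists were chosen after seeing the data. PHGDH, with 24 to 161 counts, and ALDH1L2, with 19 in DMSO 3, rest on the fewest reads.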
